A study of Mus musculus with 4 samples.

Results

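Cells of the embryonic mesoderm carry transcription factors that record where in the body they arose, and fibroblasts taken into culture keep part of that record. Levels are given here for 9 such factors: the forkhead genes Foxf1, Foxf2 and Foxd1, the odd-skipped zinc finger genes Osr1 and Osr2, the GATA zinc finger genes Gata4 and Gata6, and the T-box genes Tbx5 and Tbx15. They were listed by name, and each was taken from the transcript entry that bears its symbol, which is 1 entry for each of the 9. The table holds 16612 named genes in all. The members were chosen by name with their RPKM and genotype ratios in these same 4 libraries already known, so the levels and ratios below describe the libraries and support nothing by themselves.

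The cells are mouse embryonic fibroblasts (MEFs). The groups were Mll1-/- cells given TNF, Mll1-/- cells given control solution, wild-type (Mll1+/+) cells given TNF and wild-type cells given control solution. TNF, an inflammatory cytokine, was given for 4 hr at 10 ng/ml per the series' design text, while the treatment protocol states another unit. Cells from 3 treatments were mixed before sequencing, so each group is 1 library with no replicate spread, and no p-value is given. The question of the series is how Mll1, a histone H3 lysine 4 methyltransferase now named Kmt2a, bears on the genes that TNF turns on. The labels do not state the allele or how many embryos or cell lines stand behind each genotype, so genotype cannot be told apart from any other lasting difference between the cell stocks. Kmt2a itself had 1.66 RPKM (reads divided by transcript length and by library size) in the Mll1-/- TNF library, 2.02 in the Mll1-/- control, 2.11 in wild type with TNF and 1.85 in the wild-type control. The RPKM of the whole transcript was therefore no lower in the control library labelled Mll1-/- than in its wild-type counterpart, which does not check the label, since a disrupted gene can still be transcribed and the disrupted stretch is not stated. Every direction between the genotypes below rests on the labels alone.

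The recovered totals were 19306506 reads for Mll1-/- with TNF, 20081869 for the Mll1-/- control, 27977248 for wild type with TNF and 27728647 for the wild-type control. Of the fibroblast markers, Vim lay between 2097 and 2418 RPKM in the 4 libraries, and Col1a1 had 295 and 337 RPKM in the Mll1-/- TNF and control libraries against 92.5 and 105 in the wild-type TNF and control libraries. Col3a1 was at 23.5 and 28.1 RPKM in the Mll1-/- pair but at 0.296 and 0.531 in the wild-type pair, Pdgfra was at 3.86 and 3.20 against 0.267 and 0.220, and Postn was under 0.1 RPKM throughout. Of the 10 fibroblast markers that reached 1 RPKM in a library, 5 were at least 1 higher in log2(RPKM + 0.5) in the Mll1-/- library without TNF. Over all genes and unnamed entries that reached 1 RPKM in a library, 7.11% were higher and 7.99% lower by that rule. The 1 fibroblast marker that was lower by it was Twist2 (log2 -1.20 without TNF and -0.90 with TNF). Twist2 was at 20.3 and 12.0 RPKM in the Mll1-/- TNF and control libraries against 38.4 and 28.3 in wild type. All 5 endothelial and all 5 epithelial markers with an entry were under 1 RPKM in every library. The mesothelial markers summed to 44.3 and 41.9 RPKM in the Mll1-/- TNF and control libraries against 87.5 and 103 in the wild-type pair, nearly all of it Msln and Krt19, with Wt1 and Upk3b under 0.1 in every library. The neural markers summed to 85.5 and 95.7 RPKM against 14.1 and 14.4, nearly all of it Nes and Tubb3, with Sox10, Elavl3 and Elavl4 under 0.1. The part of these differences in the results below was not tested. In mixed libraries, fewer cells that use a gene and less RNA per cell cannot be told apart.

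GATA4 and GATA6 open the programmes of heart, gut and lateral mesoderm. FOXF1 and FOXF2 mark the splanchnic mesoderm around gut and lung, where Hedgehog from the endoderm turns them on. FOXD1 marks the stroma of the kidney, OSR1 the intermediate mesoderm that gives rise to the kidney, and OSR2 the palate and limb. TBX5 sets up the forelimb and heart, and TBX15 acts in the skeleton and the skin of the body wall. Mll1 binds stretches of DNA rich in unmethylated CG through a CXXC domain, which is the reason for showing the sequence that leads up to the start of a gene. RefSeq promoter windows (build GRCm38.p6) were at hand for 2 of the 9 factors, Foxf2, which was higher in the Mll1-/- libraries, and Foxd1, which was lower. The 250 bases before each start are given 5′ to 3′, with each CG in capitals, for chr13:31625566-31625815 (Foxf2, plus strand) and chr13:98353995-98354244 (Foxd1, plus strand).
Foxf2: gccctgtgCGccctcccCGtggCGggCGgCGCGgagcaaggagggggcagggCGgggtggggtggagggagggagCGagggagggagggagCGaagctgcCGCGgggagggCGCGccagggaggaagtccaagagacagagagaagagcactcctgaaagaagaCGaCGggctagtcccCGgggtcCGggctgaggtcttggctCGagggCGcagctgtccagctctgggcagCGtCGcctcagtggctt
Foxd1: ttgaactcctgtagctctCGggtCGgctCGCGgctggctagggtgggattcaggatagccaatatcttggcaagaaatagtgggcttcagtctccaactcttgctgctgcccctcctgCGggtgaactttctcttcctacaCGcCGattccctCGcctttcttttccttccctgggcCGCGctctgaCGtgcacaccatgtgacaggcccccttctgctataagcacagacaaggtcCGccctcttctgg

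The Foxf2 window held 21 CG and the Foxd1 window 12, against a median of 6 over 32851 windows of that length. As many CG as in Foxf2 were found in 16.3% of the windows, and as many as in Foxd1 in 33.5%. Neither window held AGATAA, a form of the GATA motif, or TGTTTAC, a forkhead motif, on either strand. AGATAA was in 9.99% and TGTTTAC in 3.17% of all windows. Both counts lie above the median, for the factor that was higher and for the one that was lower.

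The factors fell into those higher in the Mll1-/- libraries, those lower and those near equal. Ratios were set on the scale of log2(RPKM + 0.5), on which the change of a gene with low values appears too small, over the 14386 genes and unnamed entries with at least 1 RPKM in at least 1 library. A gene was counted when that log2 ratio was 1 or more in size. Of the 9 factors 7 passed the filter on low values, and Osr2 and Tbx5 did not. Without TNF, 3 of the 7 were counted as higher in the Mll1-/- library (Foxf1, Osr1 and Foxf2), where 7.11% of all genes compared were, and 2 as lower (Gata6 and Foxd1), where 7.99% of all genes were. With TNF the same 3 were higher and the same 2 lower, against 6.71% and 4.5% of all genes. The median log2 ratio of the 7 was -0.26 without TNF and -0.28 with TNF, beside -0.07 and -0.05 over all genes. Since the list was chosen with this contrast known, nothing is read from these shares.

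**Figure D1:**
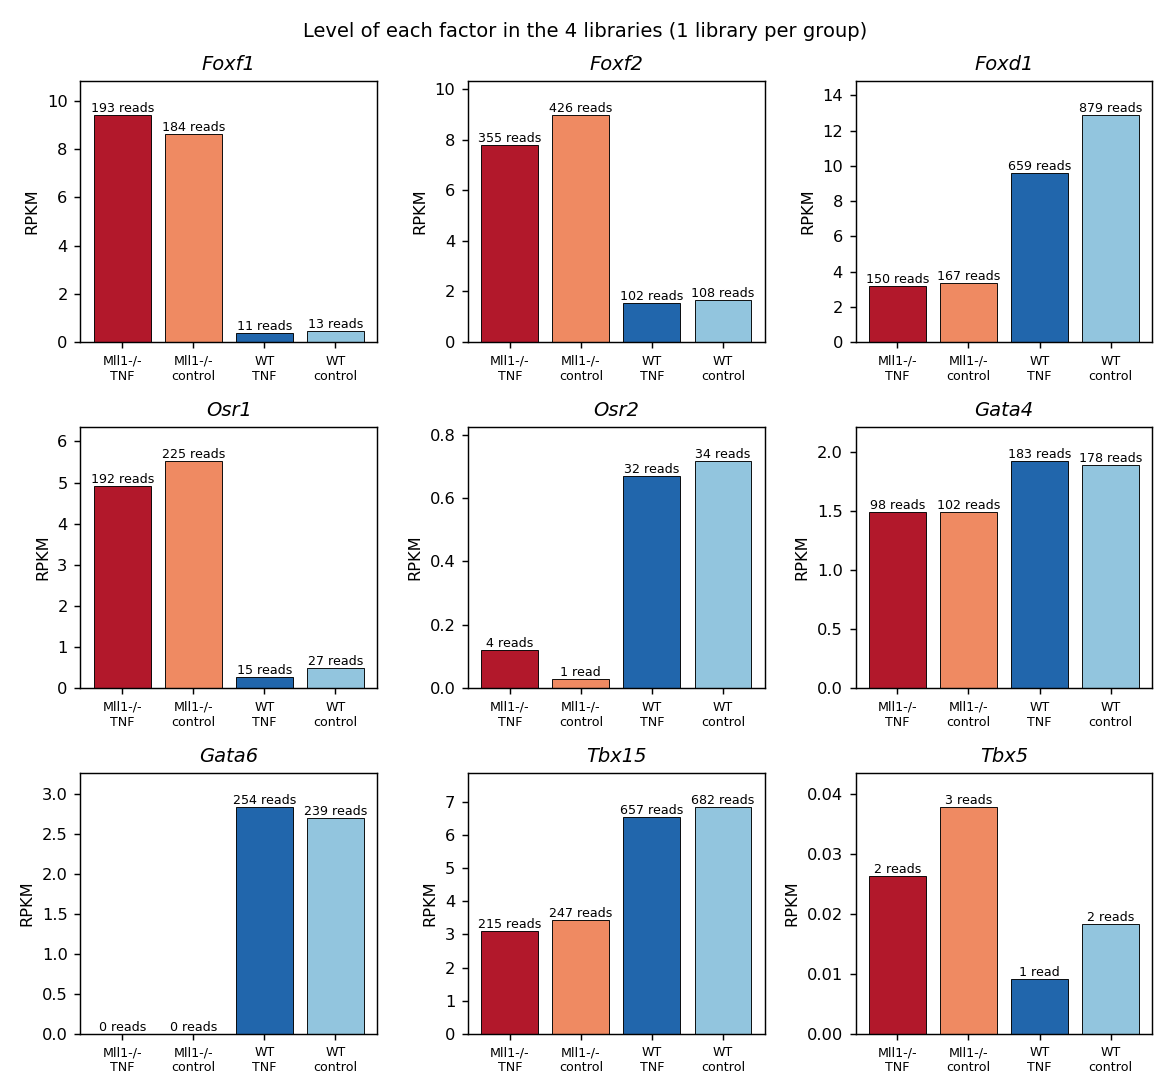
RPKM of the 9 factors (bars, each panel with its own axis from 0) in the Mll1-/- TNF, Mll1-/- control, WT TNF and WT control libraries, 1 library per bar, with the recovered reads above each bar. Foxf1, Foxf2 and Osr1 stand high in both Mll1-/- libraries, Gata6, Foxd1, Tbx15 and Osr2 in both wild-type libraries, and Tbx5 has between 1 and 3 reads throughout.

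Foxf1, the forkhead factor of lung and gut mesenchyme, had 9.41 RPKM in the Mll1-/- TNF library and 8.63 in the Mll1-/- control, against 0.370 in wild type with TNF and 0.441 in the wild-type control. Both Mll1-/- libraries were far above both wild-type libraries, which held 11 and 13 reads. The Foxf1 read ratio of Mll1-/- over wild type was 25.4 with TNF (95% counting interval 13.9 to 51.8) and 19.5 without (11.1 to 37.4). Counting intervals here are exact Clopper-Pearson intervals, and they cover counting error only. The recovered length of the Foxf1 entry, 1062 bases, is the shortest that gives whole reads, and the GENCODE M21 transcript paired with it has 2415 bases. If the true length is a multiple, the reads are more and the intervals narrower, while the ratios stay as they are.

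Foxf2, which acts beside Foxf1 in gut and palate mesenchyme, had 7.77 and 8.97 RPKM in the Mll1-/- TNF and control libraries, against 1.54 and 1.65 in the wild-type TNF and control libraries. The higher level was again in both Mll1-/- libraries, and the wild-type libraries held 102 and 108 reads. The Foxf2 read ratio was 5.04 with TNF (4.04 to 6.35) and 5.45 without (4.40 to 6.79). Summed, the Foxf pair came to 17.2 and 17.6 RPKM in the Mll1-/- TNF and control libraries, against 1.91 and 2.09 in wild type. Foxf1 made up 54.8% and 49.0% of that sum in the Mll1-/- libraries, against 19.4% and 21.1% in the wild-type libraries. The pair thus stood near equal in the Mll1-/- cells, while Foxf2 was the more abundant member in wild type.

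Osr1, the odd-skipped factor of intermediate and lateral mesoderm, had 4.91 and 5.53 RPKM in the Mll1-/- TNF and control libraries, against 0.265 and 0.480 in the wild-type TNF and control libraries. Reads for Osr1 numbered 192 and 225 in the Mll1-/- pair, against 15 and 27 in the wild-type pair. The Osr1 read ratio was 18.5 with TNF (10.97 to 33.8) and 11.5 without (7.70 to 17.8). Its relative Osr2, needed for palate growth, went the other way at a much lower level, with 0.121 and 0.0291 RPKM in the Mll1-/- TNF and control libraries against 0.669 and 0.717 in wild type. These are 4 and 1 reads against 32 and 34, so Osr2 was 5.52-fold lower with TNF (1.96 to 21.5) and 24.6-fold lower without (4.13 to 1001) on reads alone. Osr1 made up 97.6% and 99.5% of the summed Osr RPKM in the Mll1-/- TNF and control libraries, against 28.3% and 40.1% in the wild-type pair. The Osr gene with the higher RPKM was therefore Osr1 in the Mll1-/- libraries and Osr2 in the wild-type libraries. In wild type neither Osr gene reached 1 RPKM, and no counting interval was set between them.

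Foxd1, the stromal forkhead factor, had 3.16 and 3.38 RPKM in the Mll1-/- TNF and control libraries, against 9.57 and 12.9 in the wild-type TNF and control libraries. It was the most abundant of the 9 in wild type. The Foxd1 level in the Mll1-/- library was 3.03-fold lower with TNF (2.54 to 3.64) and 3.81-fold lower without (3.23 to 4.53).

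Gata6, a GATA factor of heart, endoderm and smooth muscle, had 0 reads in both Mll1-/- libraries, against 2.84 RPKM in wild type with TNF and 2.70 in the wild-type control. Those wild-type levels came from 254 and 239 reads. Other markers of the tissues that use Gata6 were mostly low. Of 4 endoderm markers considered here 3 were under 1 RPKM in every library, and of 6 cardiomyocyte markers with an entry 5 were. The exceptions, Foxa2 and Tnnt2, were higher in the Mll1-/- libraries, opposite to Gata6. Foxa2 was at 1.12 and 1.52 RPKM in the Mll1-/- TNF and control libraries against 0 in both wild-type libraries. Tnnt2 was at 36.2 and 34.2 RPKM against 12.8 and 13.9 in the wild-type TNF and control libraries. The part of these markers in the Gata6 difference was not tested. With the count of 0 set to 3 reads, Gata6 was 58.4-fold lower with TNF and 57.7-fold lower without. The exact counting interval, which also takes in error of the wild-type reads, began at 47.2-fold lower with TNF and 46.6-fold lower without. Gata4, which shares many binding sites and tissues with Gata6, stood at 1.496 and 1.497 RPKM in the Mll1-/- TNF and control libraries, against 1.93 in wild type with TNF and 1.89 in the wild-type control. The Gata4 read ratio was 0.776 with TNF (0.601 to 0.997) and 0.791 without (0.614 to 1.01), within the size rule in both comparisons. Gata4 was thus the sole source of the Gata4 and Gata6 sum in the Mll1-/- libraries (1.496 and 1.497 RPKM), against 40.4% and 41.2% of 4.77 and 4.59 RPKM in wild type.

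Tbx15, a T-box factor of skeleton and skin, had 3.11 and 3.43 RPKM in the Mll1-/- TNF and control libraries, against 6.55 and 6.86 in the wild-type TNF and control libraries. Both Mll1-/- libraries lay below both wild-type libraries. The level was 2.11-fold lower with TNF (1.81 to 2.47) and 2.0-fold lower without (1.73 to 2.32) on reads, yet the log2 ratios of (RPKM + 0.5), -0.97 and -0.90, fell short of the size rule. Tbx5, the forelimb and heart T-box factor, had 2 and 3 reads in the Mll1-/- TNF and control libraries and 1 and 2 reads in the wild-type pair. Tbx5 was at or under the floor of 3 reads in all 4 libraries, so a difference was not detectable at this depth and no ratio is given.

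**Figure D2:**
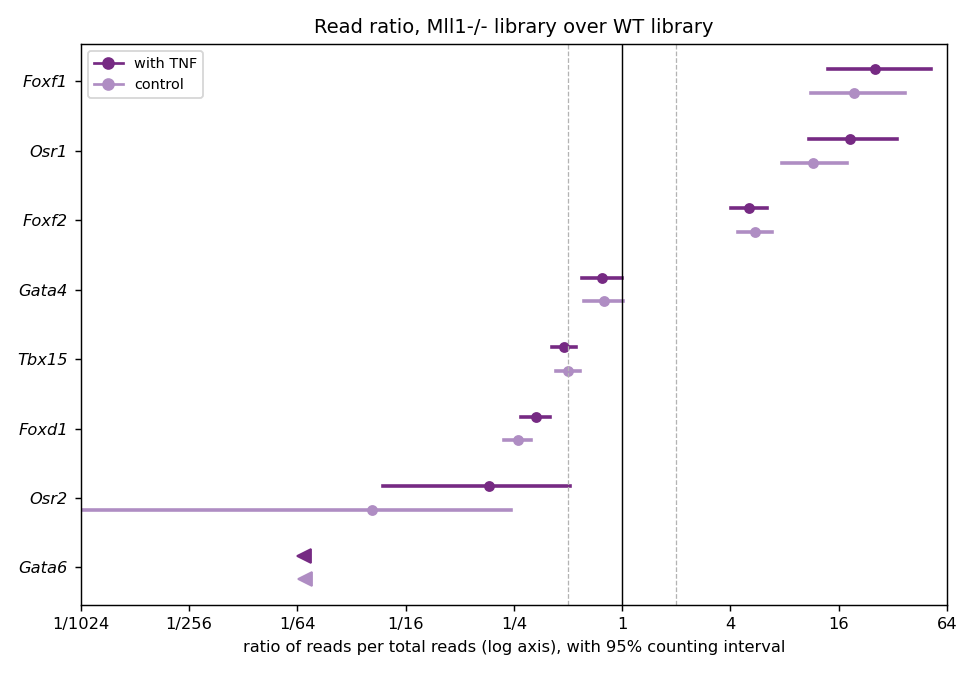
Ratio of reads per total reads, Mll1-/- over WT (horizontal axis, log scale), for 8 factors with and without TNF. Points are ratios, lines are 95% counting intervals, arrowheads mark the bound for Gata6 (0 reads in both Mll1-/- libraries), dashed lines mark a 2-fold difference, and Tbx5 is left out. Foxf1, Osr1 and Foxf2 lie right of 1 and Tbx15, Foxd1, Osr2 and Gata6 left of it in both comparisons.

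Against all genes compared, the factors past the size rule lay far out in the distribution. Without TNF, 0.50% of the genes had a higher log2 ratio than Foxf1 (3.28), 1.09% a higher ratio than Osr1 (2.62) and 1.93% a higher ratio than Foxf2 (2.14). At the other end, 0.612% had a lower log2 ratio than Gata6 (-2.68) and 1.49% a lower one than Foxd1 (-1.79). The middle 95% of all log2 ratios in that comparison ran from -1.55 to 1.96. With TNF, the log2 ratios were 3.51 for Foxf1, 2.82 for Osr1, 2.02 for Foxf2, -2.74 for Gata6 and -1.46 for Foxd1, and the middle 95% ran from -1.37 to 1.91. Each of the 5 was outside that range in both comparisons. The comparisons share no library, but both set Mll1-/- cells against wild-type cells, so neither checks the other. The factors were chosen with these ratios known, so nothing is read from their place among all genes.

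**Figure D3:**
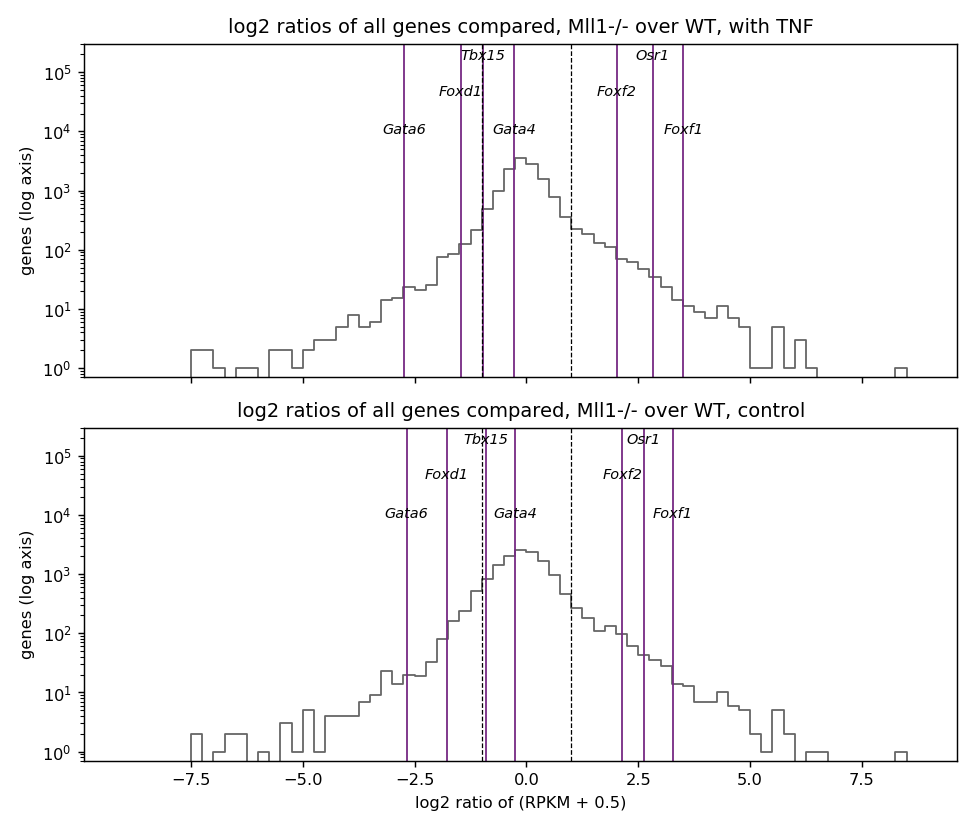
Number of genes (vertical axis, log scale) by log2 ratio of (RPKM + 0.5), Mll1-/- over WT, with TNF (top) and in controls (bottom), over the 14386 genes and unnamed entries compared. Purple lines mark the 7 factors that passed the filter and dashed lines the size rule of 1; Foxf1, Osr1, Foxf2, Foxd1 and Gata6 lie outside the dashed lines and Gata4 and Tbx15 inside.

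The effect of TNF could be read for 6 of the 7 factors in Mll1-/- cells, where Gata6 has no reads. Of those 6, 0 were counted as higher or lower with TNF, where 0.688% of all genes were higher and 0.16% lower, and the log2 ratios ran from -0.19 (Foxf2) to 0.12 (Foxf1). In wild-type cells 5 factors had at least 0.5 RPKM in 1 of the libraries. Of those 5, 0 were counted, where 0.521% of all genes were higher and 0.0556% lower, and the log2 ratios ran from -0.41 (Foxd1) to 0.06 (Gata6). So few genes passed the size rule with TNF that nothing is read from the counts of 0. Foxf1 and Osr1 lay under the added 0.5 RPKM in wild type, where the size rule can hardly be reached, so their reads are given instead. The TNF read ratio in wild type was 0.839 for Foxf1 (0.34 to 2.03) and 0.551 for Osr1 (0.272 to 1.07), and both intervals hold 1. Foxd1 in wild type was the single case where the counting interval of the TNF ratio left out 1. It had 659 reads with TNF and 879 without, a read ratio of 0.743 (0.671 to 0.823), and 1.88% of all genes had a lower log2 ratio. In Mll1-/- cells the Foxd1 ratio was 0.934 (0.744 to 1.17). The difference between those Foxd1 responses, Mll1-/- minus wild type, was 0.33 in log2 read ratios, with a counting interval of -0.02 to 0.68 that holds 0. As for Foxf1, the recovered length of the Foxd1 entry, 2461 bases, is the shortest that gives whole reads. The GENCODE M21 transcript paired with it has 5064 bases. If the true length is a multiple, that interval is narrower, so whether it holds 0 is not settled. For the 4 factors at 0.5 RPKM or more in both genotypes (Gata4, Foxf2, Foxd1 and Tbx15), the log2 TNF ratio in Mll1-/- minus that in wild type lay between -0.12 and 0.32. Of those 4, 0 passed the size rule, where 0.758% of all genes were higher and 0.424% lower. In log2 read ratios the difference was 0.69 for Osr1 (-0.26 to 1.64) and 0.38 for Foxf1 (-0.81 to 1.57), too wide to place.

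**Figure D4:**
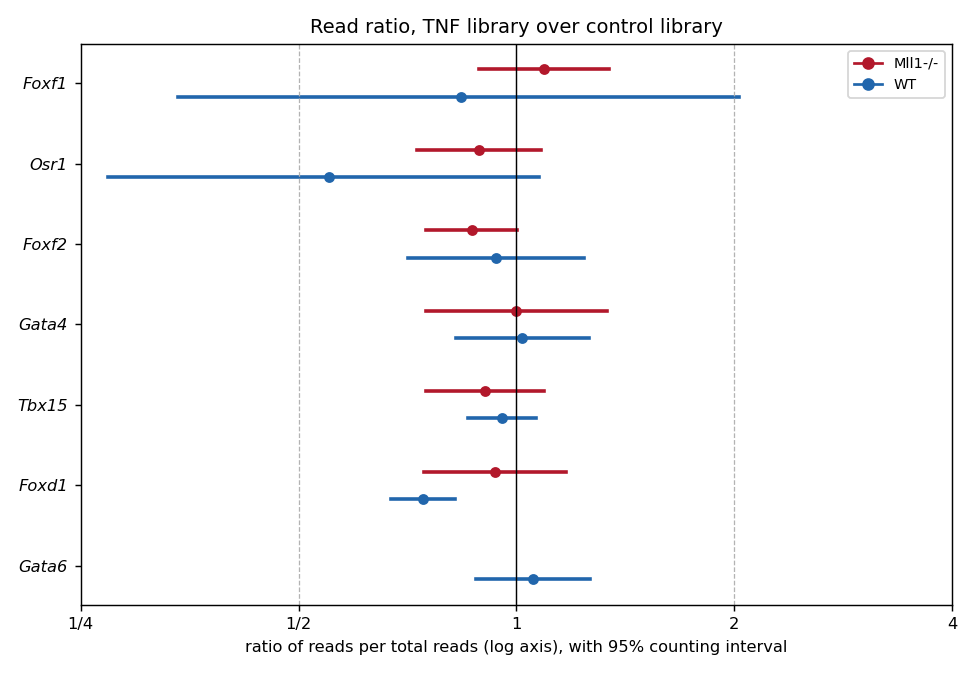
Ratio of reads per total reads, TNF over control (horizontal axis, log scale), in Mll1-/- and WT cells for the 7 factors that passed the filter. Points are ratios, lines are 95% counting intervals and dashed lines mark a 2-fold difference; Gata6 has no Mll1-/- point because both libraries hold 0 reads. All points lie inside the dashed lines, and Foxd1 in wild type (0.743) is the sole interval that leaves out 1. The Foxf2 interval in Mll1-/- cells ends at 1.0003.

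Foxf1 and Foxf2 each lie in a cluster of forkhead genes, in which Foxc2, Foxl1 and Foxc1 were lower in the Mll1-/- libraries and Foxq1, like Foxf1 and Foxf2, was higher. On chromosome 8 Foxc2, a forkhead factor of somites and vessels, is 2 genes from Foxf1 among the genes of the table. It had 1.85 and 1.64 RPKM in the Mll1-/- TNF and control libraries, against 6.995 and 8.005 in wild type. Foxc2 was 3.77-fold lower with TNF (3.04 to 4.73) and 4.89-fold lower without (3.92 to 6.18), where Foxf1 was higher. On chromosome 13 Foxc1, the close relative of Foxc2, is the next gene after Foxf2 and had 2.26 and 2.41 RPKM in the Mll1-/- libraries, against 7.44 and 10.5 in wild type. Foxc1 was 3.29-fold lower with TNF (2.79 to 3.90) and 4.36-fold lower without (3.74 to 5.10). Foxq1, 2 genes away on the other side, did not pass the filter on low values. It had 0.422 and 0.724 RPKM in the Mll1-/- TNF and control libraries, against 0.0127 and 0.0128 in wild type. These are 23 and 41 reads against 1 and 1, a read ratio of 33.3 with TNF (5.41 to 1373) and 56.6 without (9.61 to 2290). Each cluster thus held genes that differed in opposite directions. Foxl1, next to Foxc2 and added after its values were seen, had 0.560 and 0.656 RPKM in the Mll1-/- libraries, against 1.69 and 1.499 in wild type. Its log2 ratio was -1.05 with TNF and -0.79 without, the latter within the size rule.

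**Figure D5:**
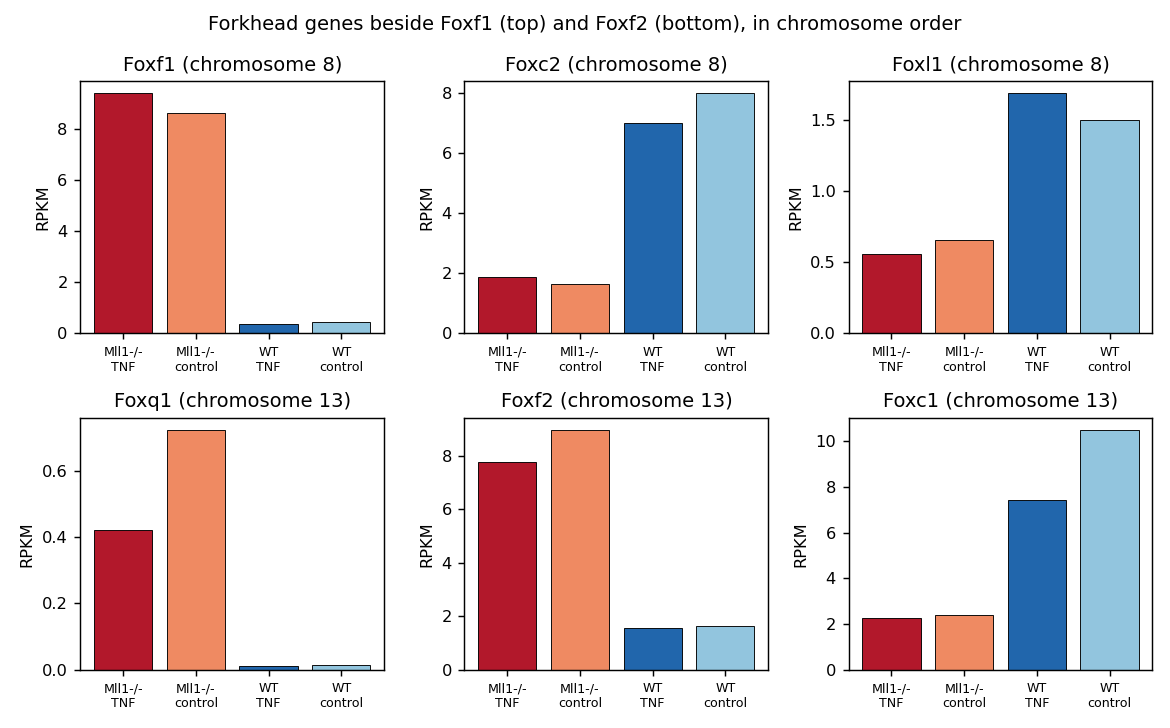
RPKM (bars, each panel with its own axis from 0) of Foxf1, Foxc2 and Foxl1 on chromosome 8 (top) and Foxq1, Foxf2 and Foxc1 on chromosome 13 (bottom) in the Mll1-/- TNF, Mll1-/- control, WT TNF and WT control libraries. Foxf1, Foxq1 and Foxf2 are higher in the Mll1-/- libraries, and Foxc2, Foxl1 and Foxc1 in the wild-type libraries. Foxq1 is under 1 RPKM in every library.

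Of the 2 nearest genes with an entry on each side of Gata6, Cables1 had 0.139 and 0.417 RPKM in the Mll1-/- TNF and control libraries against 3.08 and 4.49 in wild type (log2 -2.48 and -2.44), while Mib1 and Rbbp8 were within the size rule and Abhd3 was under 0.2 RPKM. Beside Foxd1, Tmem171 had log2 ratios of -0.55 with TNF and -1.27 without. Beside Osr1, Wdr35 had log2 ratios of -1.06 with TNF and -0.96 without, opposite to Osr1. Of the neighbours of Gata4, Osr2, Tbx5 and Tbx15 taken by this rule, none that passed the filter was past the size rule. Some did not pass the filter and could not be counted. Among these Tbx3, beside Tbx5, had 19 and 27 reads in the Mll1-/- TNF and control libraries against 0 in both wild-type libraries. Spag17, beside Tbx15, had 18 and 33 reads against 34 and 28 in the wild-type TNF and control libraries. Antisense or predicted genes overlap Gata6, Tbx5 and Tbx15 in the RefSeq table, and since the labels do not mention strand, their reads cannot be told apart from those of the factors.

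Other factors of the same families lay on both sides of the size rule. The counts of these and the following lists are to be read beside the 7.11% of all genes that were higher and the 7.99% that were lower without TNF. Of 7 other GATA-type genes and cofactors, 4 passed the filter, with 1 higher and 2 lower in the Mll1-/- library without TNF and a median log2 ratio of -0.61 beside -0.07 over all genes. Trps1, a repressor that binds GATA motifs, was at 2.41 and 2.85 RPKM in the Mll1-/- TNF and control libraries against 0.354 and 0.318 in wild type. Gata3 was at 0.366 and 0.474 against 2.95 and 2.61, and Zfpm2, the cofactor of Gata4 in heart development, at 6.91 and 4.89 against 17.5 and 11.9. Of 14 other forkhead genes with an entry, 8 passed, with 2 higher and 2 lower (Foxc1 and Foxc2) without TNF and a median of 0.20. The higher ones were Foxp1, at 14.6 and 17.9 RPKM in the Mll1-/- TNF and control libraries against 10.4 and 8.21 in wild type, and the endoderm factor gene Foxa2, at 1.12 and 1.52 against 0 in both wild-type libraries. Of 10 other T-box genes with an entry, 2 passed. Eomes, which marks early mesoderm, was at 1.65 and 1.90 RPKM against 0.0192 and 0.0290, and Tbx18 was within the size rule at 3.31 and 3.44 against 4.22 and 4.76.

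Among factors of kidney and somite, Pax2, a kidney factor, had 0 RPKM in both Mll1-/- libraries against 3.89 and 4.55 in the wild-type TNF and control libraries. Pax9 and Pax3 were likewise at 0 RPKM in both Mll1-/- libraries, as Gata6 was, against 2.46 and 2.37 RPKM for Pax9 and 1.16 and 1.01 for Pax3 in wild type. Of 11 kidney and somite factors with an entry, these 3 alone passed the filter, with 0 higher and 3 lower without TNF. A gene at 0 RPKM in Mll1-/- and at 1 RPKM or more in wild type is always past the size rule. Nothing is read from that count, and the factors that did not pass could not be counted. Of 10 heart and lateral plate factors with an entry, 5 passed the filter, with 0 higher and 0 lower in the Mll1-/- library without TNF (median log2 ratio 0.29), from Mef2a (-0.06) to Nr2f2 (0.61). Of 25 limb, head and body-wall factors with an entry, 15 passed, with 4 higher and 5 lower in the same comparison (median log2 ratio 0.14). Msx2 (log2 2.02) and Lhx2 (1.75) were the highest, and Hic1 (-2.53) and Shox2 (-1.21) the lowest. A count of 0 of 5, as in the heart and lateral plate list, is near the share of all genes and says little about that list.

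Hedgehog signalling acts upstream of Foxf1 and Foxf2 in gut mesenchyme. Of 12 genes of the pathway with an entry 7 passed, with 0 higher and 1 lower without TNF (median log2 -0.02), a share near that of all genes (7.11% higher and 7.99% lower). The receptor and target gene Ptch1 was at 5.57 and 6.81 RPKM in the Mll1-/- TNF and control libraries against 8.42 and 6.53 in wild type, and the coreceptor gene Gas1, which was the lower one, at 6.91 and 5.74 against 13.7 and 12.6. Among signals tied to the factors, 15 had an entry and 5 passed, with 2 higher and 1 lower. Wnt4, a signal of kidney tubule formation, was at 0.282 and 0.226 RPKM against 2.95 and 5.67. Wnt5a was at 4.87 and 5.58 against 1.89 and 2.15, Gdnf, which draws out the ureteric bud, at 10.6 and 8.27 against 5.86 and 3.51, and Fgf10, a target of Tbx5 in the limb, at 3.48 and 4.89 against 8.66 and 9.60 (log2 -1.20 with TNF and -0.91 without).

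By the root-mean-square difference of centred log2(RPKM + 0.5) over the 4 libraries, among 9258 named genes, the profile most like that of Gata6 was Cgref1 (0.025), followed by Pla2r1 (0.041). Acp6 (0.054) and Serp2 (0.065) were closest to Foxf1, Kalrn (0.022) and Tmem200a (0.025) to Foxf2, and the collagen gene Col1a2 (0.047) and Sybu (0.083) to Osr1. Slc2a9 (0.039) and Foxc1 (0.054) were closest to Foxd1, and Nectin1 and Daglb (0.025 each) to Tbx15. For Gata4, whose profile is nearly flat, Eva1c (0.0040) and Tmed7 (0.0064) were closest, but 4514 genes lay within 0.2 of it, so the order there carries little. Within the same 0.2 lay 22 genes for Gata6, 27 for Foxf1, 57 for Osr1, 78 for Foxd1, 85 for Foxf2 and 656 for Tbx15, so 4 libraries do not single out 1 partner for any factor. Foxf1 and Osr1 in wild type and Gata6 in Mll1-/- cells lay under the added 0.5 RPKM, which shrinks their differences. Likeness on this scale is therefore not likeness of fold differences there. Col1a2 was at 170 and 198 RPKM in the Mll1-/- TNF and control libraries against 25.9 and 32.2 in wild type. Osr1 was at 4.91 and 5.53 against 0.265 and 0.480.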

How the data were processed

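RNA of 4 libraries was measured. The authors deposited RPKM for 27344 RefSeq transcript entries, per the file headers. The submitters' processing notes name TopHat and DESeq with no role; for the build, annotation and counting program: not given in the sources used here. From the RPKM, library totals and entry lengths were recovered: in 99.99% of entries 1 length gave whole reads in all 4 libraries within 0.0001 reads. Recovered reads are the smallest whole counts that fit, so a lower bound of those counts. Summed over entries, they came to 1.647 times the recovered total for Mll1-/- with TNF and 1.603 for the Mll1-/- control. For wild type the sums were 1.679 times the total with TNF and 1.697 in the control. They are thus not all distinct reads of those totals, and the intervals do not take this in. Entries were named through RefSeq (GRCm38.p6, 20849 entries) or GENCODE M21 (102); 6393 unnamed entries were kept, and the entry with the highest mean RPKM stood for a symbol. Log2(RPKM + 0.5) was compared over entries with at least 1 RPKM in 1 library. With 1 library per group replicate error is unknown, and no test was made. A log2 ratio of 1 or more in size was counted. Intervals (95%, exact binomial) and floors (3 reads) cover counting error only. All 9 factors are named; of each other list the 2 highest and 2 lowest log2 ratios without TNF were eligible, and for each factor the 2 genes closest in profile. The members and lists were chosen with earlier results of these data known. Some genes of the lists are not reported here. Alternatives were other pseudocounts, scalings, a length correction, summed entries and no filter. Recovery and intervals were tested on simulated data. Python 3.11.15, numpy, pandas and scipy were used.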

Additional observations from a re-analysis of the deposited data

How the results depend on the processing

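The alternatives were pseudocounts of 0.1 and 1, median-ratio and upper-quartile scaling, leaving the 20 most abundant genes out of the scaling, removing the trend with transcript length, summing the entries of a symbol, and no filter on low values. Under these 8 alternatives the log2 ratios of Mll1-/- over wild type without TNF ran from 2.74 to 4.01 for Foxf1, 2.14 to 3.28 for Osr1, 1.91 to 2.40 for Foxf2, -1.90 to -1.51 for Foxd1 and -4.81 to -1.89 for Gata6, each past the size rule throughout, and 3 factors were higher in each. Summing entries and dropping the filter could not change these ratios, since each factor has 1 entry and those named had passed the filter. The count of lower factors without TNF was 3 rather than 2 with no filter, which lets in Osr2. With TNF it was 3 rather than 2 with a pseudocount of 0.1, where Tbx15 came to -1.05. For TNF, 0 factors were past the size rule in Mll1-/- or wild-type cells under any of the 8, with Gata6 in Mll1-/- cells having no reads to compare. Scaling without the 20 most abundant genes moved the median of all genes by 0.28 in the comparison without TNF and by 0.10 in that with TNF. Tbx15 without TNF was then at -0.64 and Gata4 at -0.03. No paired analysis was possible because each group has 1 library, so the groups share 1 replicate number. The genotypes were compared within each treatment, and an additive model over the 4 libraries, which would leave 1 residual degree of freedom, was not fitted. The low reads of Osr2, Tbx5 and of Foxf1 in wild type limit the precision there.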
